A study of Mus musculus with 477 samples.

Results

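The data describe 33 genes that make, move, store or export cholesterol, taken by name as rows of a single-cell count table. The table held 21004 genes, and 32 of the 33 listed genes were among them. *Tm7sf2*, a sterol reductase of the synthesis pathway, was not analysed here. By role, 17 of the 18 listed synthesis genes, 3 regulators, 5 genes of transport and storage and 7 genes of the liver X receptor (LXR) and efflux group were measured.

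Cells were captured on Fluidigm C1 chips, which isolate single cells and make full-length cDNA from each, and 477 cells from 11 mice were sequenced. All mice were female, of a mixed C57BL/6 and 129/Sv background, and carried *MMTV-Cre*, a transgene active in mammary epithelium. The luminal mice also carried a *ROSA mT/mG* reporter that turns GFP on in Cre-active cells, and tumor cells were sorted without a GFP gate. Luminal cells (CD24Hi CD29Lo, GFP+) came from the fourth mammary glands of mice 3 to 4 months old, either virgin (v) or at day 12.5 of pregnancy (p), and tumor cells (CD24+) from mammary tumors of about 1 cm. By the study's methods the genotypes were *Brca1 fl/fl* (Br), *Trp53 fl/+* (53) and both together (Br53). The study's supplement, describing flow cytometry of glands, gives *Trp53 fl/fl* instead, so the *Trp53* dose differs between the sources, and the methods' form is used here. The virgin mice were vBrL, vBr53L and v53L, the pregnant mice pBrL-1, pBrL-2, pBr53L and p53L, and the tumors BrT1, BrT2, Br53T1 and Br53T2. No mouse without a floxed allele was among them, so the *Trp53 fl/+* mice were the luminal mice with intact *Brca1*. The age of each tumor mouse was not given in the sources used here. By the study's account *Brca1 fl/fl* mice form tumors at a much greater age than that of the luminal mice, and mice that also carry the *Trp53* allele form them sooner, so age and tumor cannot be told apart.

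The mouse was the replicate, and its value is given as CPM, the reads of a gene summed over the cells of the mouse scaled to a common total for each mouse. Between 40338926 (v53L) and 115827852 reads (pBrL-1) stood behind a mouse. All groups but pBrL, with 2, held 1 mouse, so comparisons joined mice of several groups, and p-values measure the spread between these mice. Markers were checked first. The 6 luminal markers summed to 7313 to 13003 CPM in the luminal mice and to 4165 to 6650 CPM in 3 tumors, but to 512 CPM in BrT1, where *Krt19* and *Cdh1* had no reads and *Epcam* stood at 19.2 CPM. Fibroblast markers summed to 4955 CPM in BrT1, nearly all from *Dcn* and *Col1a2*. Tumor Br53T2 held 3710 CPM of basal markers against at most 468 CPM elsewhere. BrT1 thus stood apart from the other tumors, so the main tumor differences are also given without it. Its label names a mammary tumor and no cell type, which these markers do not contradict. Summed adipocyte markers stayed at or below 0.570 CPM in each mouse, and macrophage markers at or below 92.5 CPM except in pBr53L (285 CPM).

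Cells build cholesterol from acetyl-CoA through mevalonate, squalene and lanosterol. SREBP2, the product of *Srebf2*, switches the synthesis genes on when membrane sterol is low, and the INSIG proteins hold it back when sterol is plentiful. When sterol accumulates, oxidised forms activate the LXR receptors, which raise the exporters ABCA1 and ABCG1 and the carrier apolipoprotein E. The mammary gland uses these routes to supply milk fat membranes as well as its own growth.

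*Abcg1*, which exports cholesterol to lipoprotein particles, set the pregnant mice apart from the virgin mice and from 3 of the 4 tumors. It was 17.4-fold lower in the pregnant mice and was the sole listed gene called by edgeR in any comparison (1 of 32 in pregnancy, against 0.0159% of all genes tested). *Soat1*, which stores cholesterol as ester, was at its 3 lowest levels in pregnant mice. In all 4 tumors *Msmo1*, a demethylase of late sterol synthesis, and *Npc1*, which releases cholesterol from lysosomes, stood above each *Brca1*-deficient luminal mouse. Neither was called by edgeR after adjustment over all genes. DESeq2 and limma called *Msmo1*, where they called 6.44% and 2.71% of all genes. *Msmo1* and *Npc1*, 2 of 32 genes, stand against 7.52% of all genes without overlap in that comparison. Most synthesis genes differed less between stages than between mice of 1 stage.

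**Figure D1:**
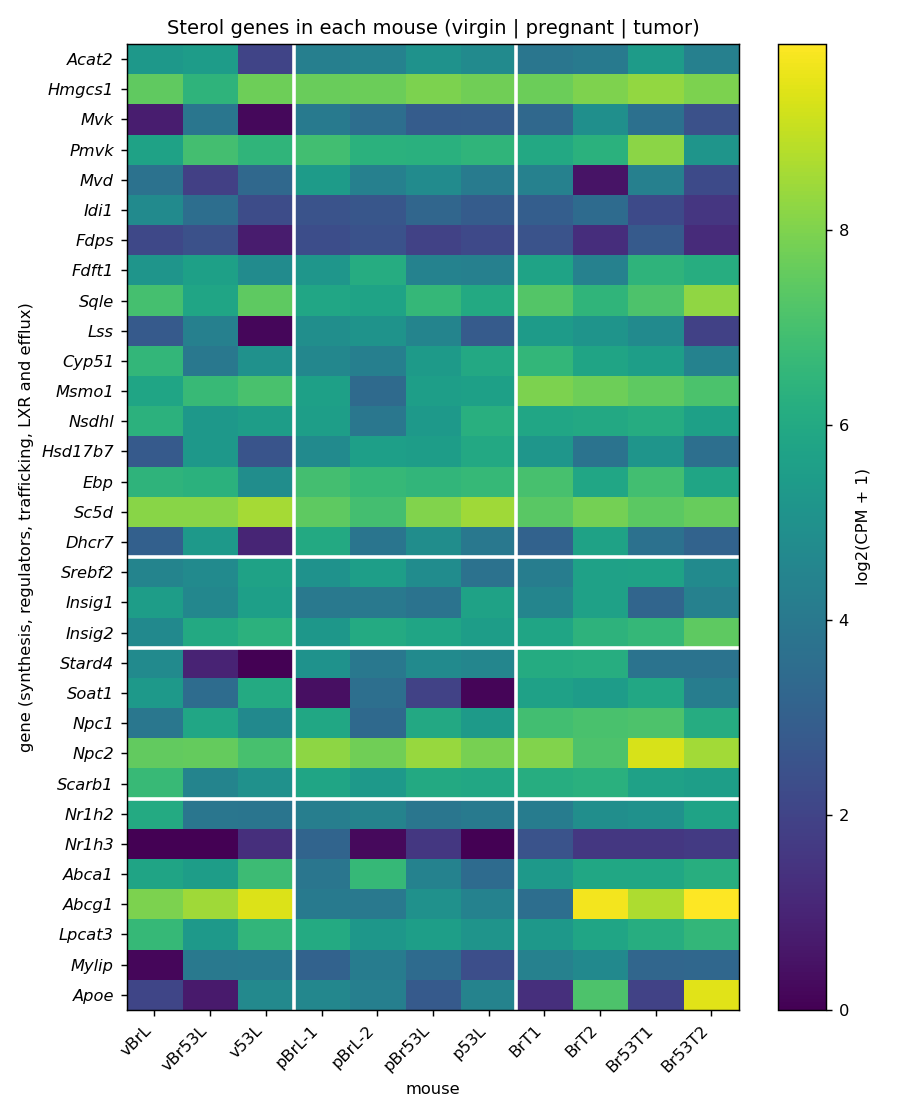
Heat map of the 32 measured sterol genes (rows, in 4 blocks by role) in the 11 mice (columns, with virgin, pregnant and tumor mice separated by white lines); colour gives log2(CPM + 1). *Abcg1* is dim in the 4 pregnant mice and in BrT1 (11.1 to 31.1 CPM) and bright in the other mice (249 to 957 CPM), and *Apoe* is brightest in Br53T2 (703 CPM).

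Synthesis was examined first. The 17 synthesis genes summed to 998 to 1141 CPM in the virgin mice, 823 to 1175 CPM in the pregnant mice and 1163 to 1561 CPM in the tumors. The lowest tumor, Br53T2, lay just below the highest luminal mouse, p53L, so the sums overlapped. Per cell, a median of 3 to 4 of the 17 genes had a read in the virgin mice after each cell was thinned to 100000 reads, against 5 to 6 in the pregnant mice and 5 to 10 in the tumors. Without thinning the medians were 4 to 6, 7 to 8 and 8 to 12. These levels are descriptions, with no test.

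Between genes, levels can be set side by side only per length of exon. *Pmvk*, the phosphomevalonate kinase, had the highest mean of the synthesis genes over the 11 mice at 57.8 CPM per kb (range 20.3 to 169). This rank leans on Br53T1, at 289 CPM of *Pmvk* against at most 122 CPM in the other mice. Next came *Sc5d*, a late desaturase, at 49 CPM per kb (25.3 to 78.8) and *Hmgcs1*, which makes HMG-CoA from acetyl-CoA units, at 46.8 CPM per kb (18.7 to 68.5). These neighbours in the order overlapped widely. *Fdps*, the farnesyl diphosphate synthase, was lowest at 0.807 CPM per kb. Its level is uncertain, as are those of *Acat2*, *Fdft1*, *Idi1* and *Hmgcs1*: between 11.6% (*Hmgcs1*) and 39.1% (*Acat2*) of the 50-base stretches of their exons also occur in other annotated genes.

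*Hmgcs1* stood at 179, 86 and 212 CPM in the virgin mice vBrL, vBr53L and v53L, between 201 and 246 CPM in the 4 pregnant mice, and at 206, 252, 315 and 247 CPM in the tumors BrT1, BrT2, Br53T1 and Br53T2. The 4 tumors thus lay above both *Brca1*-deficient virgin mice, with vBr53L far below the other luminal mice. The difference from these virgin mice was 0.80 ± 0.41 on the log2 scale (± SE, adjusted p = 0.435, edgeR quasi-likelihood test), and 0.89 ± 0.40 without BrT1 (adjusted p = 0.395).

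*Msmo1* (sterol C4 methyl oxidase, chromosome 8, 64718139 to 64733792 on GRCm38, the assembly also called mm10) differed most among the synthesis genes between tumors and luminal cells. In virgin mice vBrL, vBr53L and v53L had 55.2, 101 and 132 CPM. Pregnant mice had 48 in pBrL-1, 9.77 in pBrL-2, 46.5 in pBr53L and 48.7 in p53L. Tumor levels were 246 CPM (BrT1), 208 CPM (BrT2), 172 CPM (Br53T1) and 137 CPM (Br53T2). All 4 tumors lay above all 7 luminal mice, and all 4 pregnant mice below all 3 virgin mice. Against the 5 *Brca1*-deficient luminal mice the tumors were 1.73 ± 0.53 higher (log2 ± SE, edgeR adjusted p = 0.176), and against the 3 pregnant ones 2.29 ± 0.59 higher (adjusted p = 0.152). Without BrT1 these were 1.61 ± 0.57 (adjusted p = 0.265) and 2.16 ± 0.61 (adjusted p = 0.187). With BrT1, DESeq2 and limma called both differences. The decrease in pregnancy measured 1.09 ± 0.56 (edgeR adjusted p = 0.599). On chip SC6, which held both pBrL-2 and Br53T2, the values differed by 3.68 on the log2(CPM + 1) scale. On the chips shared by virgin and pregnant cells the difference was -1.10 (SC7) and -1.42 (SC9).

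The share of cells with an *Msmo1* read was highest in 3 of the tumors. After thinning it was 64.9% to 76.6% in BrT1, BrT2 and Br53T1 and 45.1% in Br53T2, against 11.4% to 43.6% in virgin and 15.8% to 37.7% in pregnant mice. Br53T2 was close to vBr53L there, and without thinning its share (52.9%) was below those of vBr53L (74.4%) and pBr53L (62.3%). The 3 highest cells of a mouse held 52.7% to 91.7% of its *Msmo1* reads in the luminal mice and 36.9% to 53.5% in the tumors. The median cell stood at 128 (BrT1), 79.5 (BrT2) and 92.7 CPM (Br53T1), at 0.984 CPM in Br53T2, and at 2.82 CPM in vBr53L, 1.23 in pBr53L and 0 in the other 5 luminal mice.

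For sequence, the upstream bases of 2 synthesis genes are shown: *Hmgcs1*, the single listed gene whose window holds the sterol regulatory element searched for, and *Msmo1*, the synthesis gene that separated the tumors. Each stretch is the 250 bases before the RefSeq start on GRCm38.p6, read along the gene's strand. For *Msmo1* the GENCODE annotation places the start elsewhere, at 64733792, so most of its stretch lies inside the GENCODE gene. Capitals mark the sterol regulatory element TCACNCCAC and the NF-Y box CCAAT, each searched on both strands (ATTGG is CCAAT on the other strand).
*Hmgcs1*, chr13:119690101-119690350, plus strand: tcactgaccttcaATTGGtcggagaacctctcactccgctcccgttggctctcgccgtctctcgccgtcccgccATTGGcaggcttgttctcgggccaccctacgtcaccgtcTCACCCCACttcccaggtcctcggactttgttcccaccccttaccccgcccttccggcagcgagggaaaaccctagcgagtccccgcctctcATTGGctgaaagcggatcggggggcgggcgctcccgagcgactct
*Msmo1*, chr8:64733579-64733828, minus strand: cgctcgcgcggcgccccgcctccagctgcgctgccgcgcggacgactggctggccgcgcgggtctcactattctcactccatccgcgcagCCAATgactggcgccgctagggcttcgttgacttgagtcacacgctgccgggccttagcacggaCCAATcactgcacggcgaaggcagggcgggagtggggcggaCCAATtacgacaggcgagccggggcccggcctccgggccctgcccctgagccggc
The *Hmgcs1* stretch holds 1 such element and 3 CCAAT boxes, and the *Msmo1* stretch holds 3 CCAAT boxes. In the 300-base windows (250 before to 50 after the start) of the 26 listed genes that matched the RefSeq table, TCACNCCAC occurred in 1, against 1.44% of 27025 genes. CCAAT occurred in 21 of the 26, and in 14 of the 15 synthesis genes with a window, against 41.1% of all genes. The E-box CACGTG occurred in 5, against 8.09%. A match is a run of letters and not a measured site. The table has no window for *Abcg1*, *Sqle*, *Fdps*, *Fdft1*, *Stard4*, *Npc1* or *Scarb1*.

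*Sqle*, the squalene epoxidase, was also higher in tumors at an unadjusted level. The tumors stood at 150 (BrT1), 89.3 (BrT2), 142 (Br53T1) and 302 CPM (Br53T2), and the *Brca1*-deficient luminal mice at 127 (vBrL), 56.4 (vBr53L), 56.4 (pBrL-1), 53.1 (pBrL-2) and 96.8 CPM (pBr53L). The groups overlapped, since vBrL and pBr53L lay above BrT2. The difference was 0.97 ± 0.41 (log2 ± SE, edgeR p = 0.0360, adjusted p = 0.318), and 1.04 ± 0.44 without BrT1 (adjusted p = 0.344). The highest value outside the tumors was 173 CPM in v53L, which carries intact *Brca1*.

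In pregnancy, *Mvd*, the decarboxylase that closes the mevalonate steps, and *Ebp*, the sterol isomerase, stood higher in all 4 pregnant mice than in all 3 virgin mice. *Mvd* measured 12.5, 2.71 and 9.27 CPM in vBrL, vBr53L and v53L, and 42.3, 18.9, 26.2 and 16.2 CPM in pBrL-1, pBrL-2, pBr53L and p53L. *Ebp* measured 85.8, 78.5 and 27.9 CPM in the virgin and 121, 99.1, 89.6 and 97.5 CPM in the pregnant mice, in the same order. Neither passed the test (edgeR adjusted p = 0.563 for *Mvd* and 0.619 for *Ebp*). *Hsd17b7*, a ketoreductase of the same late steps, was at 5.99, 37.8 and 4.91 CPM in the virgin and at 25.9, 47.4, 45.2 and 62.6 CPM in the pregnant mice. It overlapped through vBr53L, with a difference of 2.30 ± 0.81 (log2 ± SE, edgeR p = 0.0232, adjusted p = 0.461).

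The remaining synthesis genes overlapped between virgin and pregnant mice. Among them *Lss*, which closes squalene epoxide into lanosterol, ranged from 0.124 CPM in v53L to 42.3 CPM in BrT1, and *Cyp51*, the lanosterol demethylase, from 14.8 CPM in vBr53L to 94.3 CPM in BrT1. *Mvk*, the mevalonate kinase, ranged from 0.149 CPM in v53L to 29.6 CPM in BrT2. *Idi1* and *Sc5d* lay lower in all 4 tumors than in both *Brca1*-deficient virgin mice (-1.80 ± 1.00 and -0.73 ± 0.40, edgeR adjusted p = 0.447 and 0.446), and *Nsdhl*, which acts with *Msmo1*, lay higher in all 4 than in the 3 *Brca1*-deficient pregnant mice (0.68 ± 0.51, adjusted p = 0.620). *Dhcr7*, the last reductase of the route, spanned 1.02 to 63 CPM with no separation by stage.

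The regulators came next. *Srebf2* stood at 21.2 to 50.6 CPM in virgin mice, 12.1 to 46.3 in pregnant mice and 17.5 to 51.8 in tumors. *Insig1* was at 44.8, 22.9 and 46.8 CPM in vBrL, vBr53L and v53L, between 12.8 and 15.2 CPM in the 3 *Brca1*-deficient pregnant mice and at 50.6 CPM in p53L, and spread from 8.29 to 49.5 CPM over the tumors. Among luminal mice *Insig1* therefore lay lower in all 5 *Brca1*-deficient mice than in both *Trp53 fl/+* mice, which share chip SC9, so genotype and chip cannot be told apart. *Insig2* was highest in Br53T2 (172 CPM) and ranged from 25 to 96.2 CPM in the other mice.

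Transport and storage genes followed. *Npc1* hands cholesterol out of the lysosome together with *Npc2*, which carries it inside. *Npc1* measured 14.2, 56.9 and 25.2 CPM in vBrL, vBr53L and v53L, and 58.2, 9.36, 61.4 and 40.6 CPM in pBrL-1, pBrL-2, pBr53L and p53L. In the tumors it measured 118 (BrT1), 134 (BrT2), 141 (Br53T1) and 69.9 CPM (Br53T2). All 4 tumors lay above all 7 luminal mice, with Br53T2 close to the upper luminal values. Against the 5 *Brca1*-deficient luminal mice the difference was 1.38 ± 0.58 (log2 ± SE, edgeR p = 0.0350, adjusted p = 0.315). Without BrT1 it was 1.40 ± 0.63 (edgeR p = 0.0516, adjusted p = 0.371).

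*Npc2* was at 182, 190 and 128 CPM in the virgin mice vBrL, vBr53L and v53L, and at 297, 216, 332 and 237 CPM in the pregnant mice pBrL-1, pBrL-2, pBr53L and p53L. All pregnant mice lay above all virgin mice, by 0.75 ± 0.28 (log2 ± SE, edgeR p = 0.0277, adjusted p = 0.473), and by 0.80 and 0.88 within chips SC7 and SC9 on the log2(CPM + 1) scale. The tumors ranged from 142 CPM in BrT2 to 633 CPM in Br53T1 and overlapped both stages.

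*Soat1* (sterol O-acyltransferase, chromosome 1, 156424525 to 156474331) stood at 39.8, 10.2 and 65 CPM in vBrL, vBr53L and v53L. In pregnancy it stood at 0.319 (pBrL-1), 11.3 (pBrL-2), 2.92 (pBr53L) and 0.0873 CPM (p53L), and in tumors at 49.5, 43.7, 60.6 and 17.6 CPM (BrT1, BrT2, Br53T1, Br53T2). The pregnant mice were below all tumors and, except for pBrL-2 against vBr53L, below all virgin mice. Tumors exceeded the *Brca1*-deficient pregnant mice by 3.03 ± 1.09 (log2 ± SE, edgeR p = 0.0190, adjusted p = 0.284), or 2.97 ± 1.16 without BrT1 (adjusted p = 0.312), and pregnant mice lay 3.70 ± 1.77 below virgin mice (adjusted p = 0.570). DESeq2 called the first of these and not the second.

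The cells behind *Soat1* differed in number. In each pregnant mouse exactly 1 cell had a read after thinning, 1.41% to 2.78% of cells with upper 95% limits of 7.60% to 14.5%, and in pBrL-2 and pBr53L that cell held 99.5% and 96.9% of all *Soat1* reads. Without thinning the shares were 7.04% (pBrL-1), 13.2% (pBrL-2), 7.55% (pBr53L) and 8.33% (p53L), against 22.9%, 30.8% and 47.5% in vBrL, vBr53L and v53L. After thinning, 5.13% to 32.5% of virgin cells had a read. The intervals of vBr53L (2 cells, 0.627% to 17.3%) and vBrL (4.81% to 30.3%) overlapped those of the pregnant mice, and that of v53L (18.6% to 49.1%) did not. The highest cell held 83.5%, 77.1% and 32.8% of the *Soat1* reads in vBrL, vBr53L and v53L, and 59.5% and 50% in pBrL-1 and p53L. Among tumors, BrT1 had a share of 66%, BrT2 of 35.1%, Br53T1 of 66.7% and Br53T2 of 29.4%, and no cell held more than 27.3% of the reads. Intervals and limits cover counting error over the cells of a mouse only, and leave out variation between mice. Reads without molecular identifiers are also not independent molecules.

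**Figure D2:**
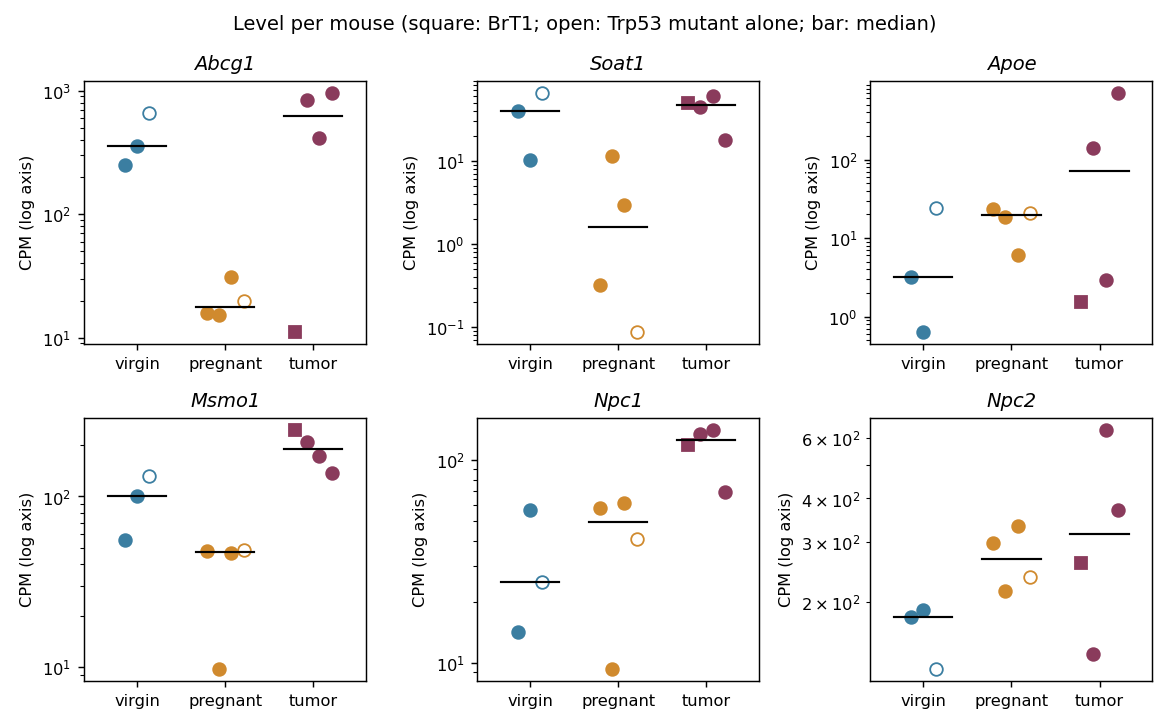
CPM per mouse on log axes for *Abcg1*, *Soat1*, *Apoe*, *Msmo1*, *Npc1* and *Npc2* in the 3 virgin, 4 pregnant and 4 tumor mice; each point is a mouse, the square is BrT1, open points are *Trp53 fl/+* mice and the bar is the median. *Abcg1* and *Msmo1* separate pregnant from virgin mice without overlap, and *Msmo1* and *Npc1* separate all tumors from all luminal mice.

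*Stard4*, a carrier of sterol between membranes, and *Scarb1*, the receptor that takes cholesterol from high-density lipoprotein, did not follow stage. *Stard4* had no reads in v53L and 0.985 CPM in vBr53L, but 25.9 CPM in vBrL and 14.5 to 32.5 CPM in the pregnant mice. It divided the tumors by genotype: BrT1 and BrT2 stood at 67.4 and 70.2 CPM, Br53T1 and Br53T2 both at 12.6 CPM. Br53 minus Br tumors gave -2.53 ± 0.75 (log2 ± SE, edgeR p = 0.0155, adjusted p = 0.9999), and DESeq2 called it (adjusted p = 0.0396). *Scarb1* spanned 20.9 to 101 CPM, both in virgin mice.

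The LXR and efflux group held the single gene called by edgeR. *Abcg1* (chromosome 17, 31057675 to 31117988) had levels of 249, 354 and 663 CPM in the virgin mice vBrL, vBr53L and v53L. It stood at 15.9 CPM in pBrL-1, 15.2 in pBrL-2, 31.1 in pBr53L and 19.9 in p53L. Tumor BrT1 had 11.1 CPM, BrT2 had 847, Br53T1 had 411 and Br53T2 had 957 CPM. Virgin and pregnant mice were far apart, with the lowest virgin mouse well above the highest pregnant mouse, and BrT1 lay below all others.

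*Abcg1* was lower in pregnant than in virgin mice by 4.12 ± 0.35 on the log2 scale (edgeR, adjusted p = 0.0278 over 12615 genes), a 17.4-fold difference. The decrease held within both chips that carried virgin and pregnant cells, at -3.47 on SC7 (vBr53L and pBr53L) and -4.99 on SC9 (v53L and p53L), on the log2(CPM + 1) scale. With chip in place of genotype in the model it was -4.20 (adjusted p = 0.0190). Leaving out single mice kept the size between -4.42 and -3.78, but in 6 of the 7 fits the adjusted p rose above the threshold, to between 0.0526 and 0.137. Those 6 left out vBrL, vBr53L, v53L, pBrL-1, pBrL-2 or pBr53L. In bulk sums such as these, fewer expressing cells and less RNA per cell cannot be told apart, so single cells were examined next.

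After thinning, 31.4% of vBrL, 46.2% of vBr53L and 75% of v53L cells had an *Abcg1* read. In the pregnant mice the share was 2.82% (pBrL-1), 13.2% (pBrL-2), 11.3% (pBr53L) and 8.33% (p53L), and the 95% exact intervals reached at most 28.1%. Virgin intervals began at 16.9% (vBrL), 30.1% and 58.8%, so only vBrL overlapped the pregnant mice in its interval. Among tumors the share was 8.51% in BrT1 and 74.5% to 89.2% in the other 3.

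**Figure D3:**
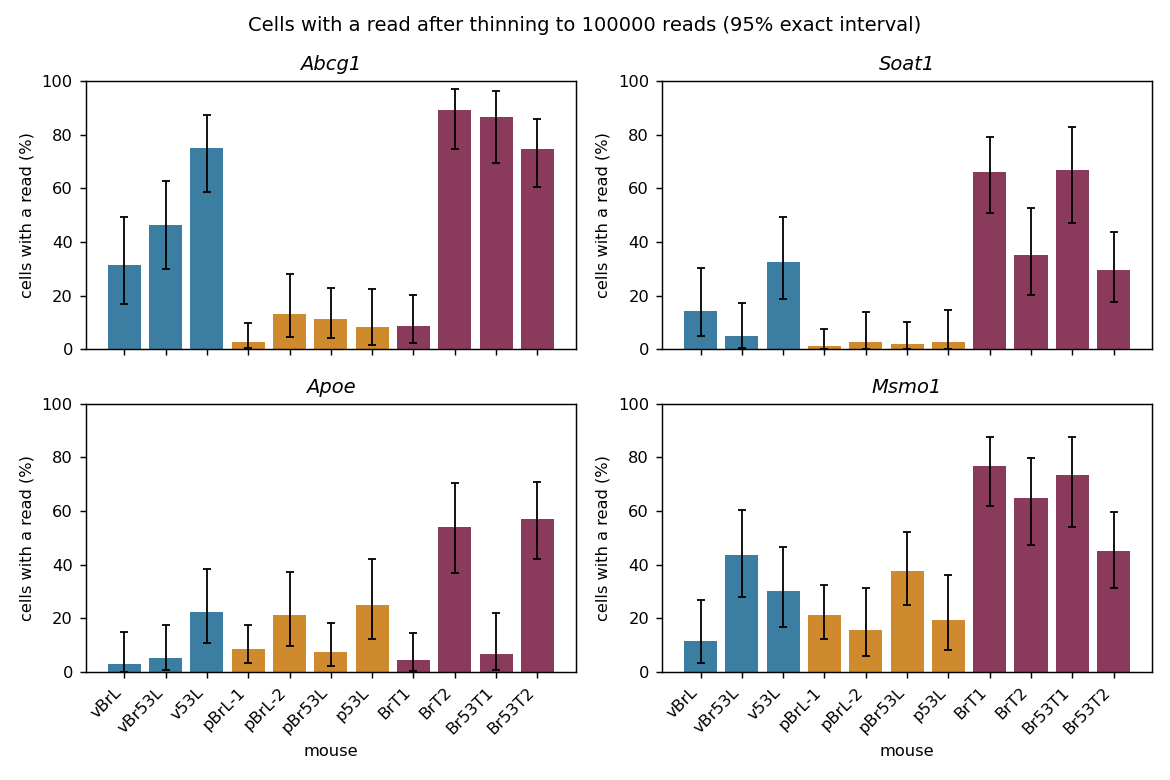
Percent of cells with a read of *Abcg1*, *Soat1*, *Apoe* and *Msmo1* in each of the 11 mice after thinning each cell to 100000 reads; bars are shares, error bars 95% exact binomial intervals, colours mark virgin, pregnant and tumor. *Abcg1* and *Soat1* are lowest in the 4 pregnant mice, apart from *Abcg1* in BrT1 (8.51%).

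In virgin mice *Abcg1* was compared with marker genes cell by cell. Across the cells of 1 mouse, Spearman's rho between *Abcg1* and the summed CPM of 8 hormone-sensing genes (*Prlr*, *Esr1*, *Pgr*, *Foxa1*, *Areg*, *Cited1*, *Prom1*, *Ly6a*) was 0.69 in vBrL (35 cells), 0.33 in vBr53L (39 cells) and 0.65 in v53L (40 cells). With the estrogen receptor gene *Esr1* alone it was 0.77, 0.50 and 0.56. *Soat1* went with the same genes, at 0.49, 0.34 and 0.66, and with *Abcg1* itself at 0.52, 0.34 and 0.65. With the summed caseins, *Abcg1* had a rho of -0.46, -0.17 and -0.68, and with the summed fibroblast markers 0.37, 0.45 and 0.41. These are descriptions across cells that share a mouse and a chip.

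The hormone-sensing genes also moved with stage, and their part in the result was not tested. Their sum was 1877, 974 and 5579 CPM in vBrL, vBr53L and v53L, 220 to 376 CPM in the pregnant mice, and 131, 112, 502 and 2450 CPM in BrT1, BrT2, Br53T1 and Br53T2. Cells were therefore divided at a summed level of 500 CPM, a cut set after the values were seen that marks a range and not a cell type. Between 4 and 23 cells per luminal mouse lay between 250 and 1000 CPM, near the cut. The upper range held 30.8% to 72.5% of virgin and 13.2% to 30.6% of pregnant cells. At or above it, mean *Abcg1* was 626, 544 and 851 CPM in the virgin mice (13, 12 and 29 cells), against 0, 45.9, 113 and 83.6 CPM in the pregnant mice (10, 6, 7 and 11 cells). Below it, *Abcg1* was 1.28, 184 and 104 CPM in the virgin and 1.43 to 23.2 CPM in the pregnant mice. In vBr53L, 20 of the 30 cells with an *Abcg1* read before thinning lay below the cut. A smaller upper range and a lower level within it thus went with pregnancy, and neither was tested.

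Mean *Soat1* in the virgin mice was 65, 31.9 and 89.8 CPM at or above the cut and at most 0.438 CPM below it. In vBrL and vBr53L these means rest largely on 1 cell each, and cells with a *Soat1* read before thinning lay on both sides of the cut, 2 below and 6 above in vBrL and 7 below and 5 above in vBr53L, against 0 and 19 in v53L. Among tumors, mean *Abcg1* was higher at or above the cut in Br53T1 (1060 against 272 CPM) and in Br53T2 (1280 against 164 CPM). The upper mean of Br53T1 rests on 6 cells. Across all 30 cells of Br53T1 the rho of *Abcg1* with these genes was -0.11, against 0.76 in Br53T2. *Ly6a* made up 406 of the 502 CPM of these genes in Br53T1. In BrT2 mean *Abcg1* was 853 CPM in the 35 cells below and 2.69 CPM in the 2 cells above, and in BrT1 5.89 CPM in 44 cells and 80 CPM in 3. *Soat1* was 53, 43, 58.2 and 21.2 CPM below the cut in BrT1, BrT2, Br53T1 and Br53T2, and 0.365, 0, 53.9 and 17.1 CPM at or above it. Fibroblast markers also moved with stage, at 176 to 712 CPM in virgin and at most 25.4 CPM in pregnant mice, all but a trace from *Dcn*, with *Col1a1* and *Col3a1* at or near 0 in each luminal mouse and *Lum* at 0 in all mice. Their part in the result was not tested.

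For *Abcg1* between tumors and pregnant mice, the edgeR call depended on BrT1. Tumors exceeded the *Brca1*-deficient pregnant mice by 4.62 ± 1.17 (log2 ± SE, edgeR adjusted p = 0.152), and without BrT1 by 5.01 ± 0.54 (adjusted p = 0.00967), which passed the test. With BrT1 kept, it also passed with all luminal mice in the fit (4.54 ± 0.97, edgeR adjusted p = 0.0455) and with DESeq2 (adjusted p = 8.2e-05). Against *Brca1*-deficient virgin mice the difference was 0.76 ± 1.12 (edgeR adjusted p = 0.796), and without BrT1 1.15 ± 0.53 (adjusted p = 0.403). On chip SC6, Br53T2 exceeded pBrL-2 by 5.88 on the log2(CPM + 1) scale.

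*Apoe*, the apolipoprotein that accepts exported cholesterol, was high in 2 tumors. It stood at 3.19, 0.632 and 24.3 CPM in vBrL, vBr53L and v53L, and at 23.2, 18.3, 6.04 and 20.5 CPM in pBrL-1, pBrL-2, pBr53L and p53L. The tumors stood at 1.55 (BrT1), 141 (BrT2), 2.90 (Br53T1) and 703 CPM (Br53T2). BrT1 and Br53T1 lay within the luminal range. The difference of all 4 tumors from the *Brca1*-deficient luminal mice, 4.24 ± 1.55, did not pass the test (edgeR p = 0.0194, adjusted p = 0.248). Without BrT1 it was 4.65 ± 1.35 (adjusted p = 0.168). DESeq2 called it with BrT1 (adjusted p = 0.0145). The difference was 2.27 ± 1.41 without Br53T2 (edgeR adjusted p = 0.505) and 2.09 ± 1.51 with limma on the log2(mean CPM + 1) scale (adjusted p = 0.510). In BrT2 54.1% and in Br53T2 56.9% of cells had a read after thinning, against 4.26% and 6.67% in the other tumors.

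In Br53T2, 1 of the 2 tumors high in both genes, they went with different marker genes. *Abcg1* had a rho of 0.76 with the hormone-sensing genes and -0.44 with 6 basal genes across the 51 cells, and *Apoe* had -0.37 and 0.70. *Apoe* went with *Acta2* (0.64), *Krt14* (0.59), *Myh11* (0.54) and *Krt5* (0.51), and *Abcg1* with *Prlr* (0.77). At 100 CPM or more, 33 cells carried *Abcg1* and 20 *Apoe*, of which 11 carried both. Their rho with each other was -0.28. In BrT2, where 33 of 37 cells passed 100 CPM for *Abcg1* and 12 for *Apoe*, 11 of the 12 carried both, and the rho was 0.27. In BrT2 *Abcg1* had a rho of -0.40 with the hormone-sensing and -0.20 with the basal genes, and *Apoe* had -0.36 and -0.18. *Abcg1* thus did not rise with the hormone-sensing genes in BrT2. These genes summed to 112 CPM there, the lowest sum of the 11 mice. The basal genes summed to 0.741 CPM, so their rho says little. Macrophages also make *Apoe*, and hematopoietic cells had been depleted before sorting. Their markers summed to 57.4 CPM in Br53T2, mostly *Cd68*, with *Ptprc* at 0.0440 CPM and *Adgre1* at 0. The rho of these summed markers with *Apoe* was -0.07.

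**Figure D4:**
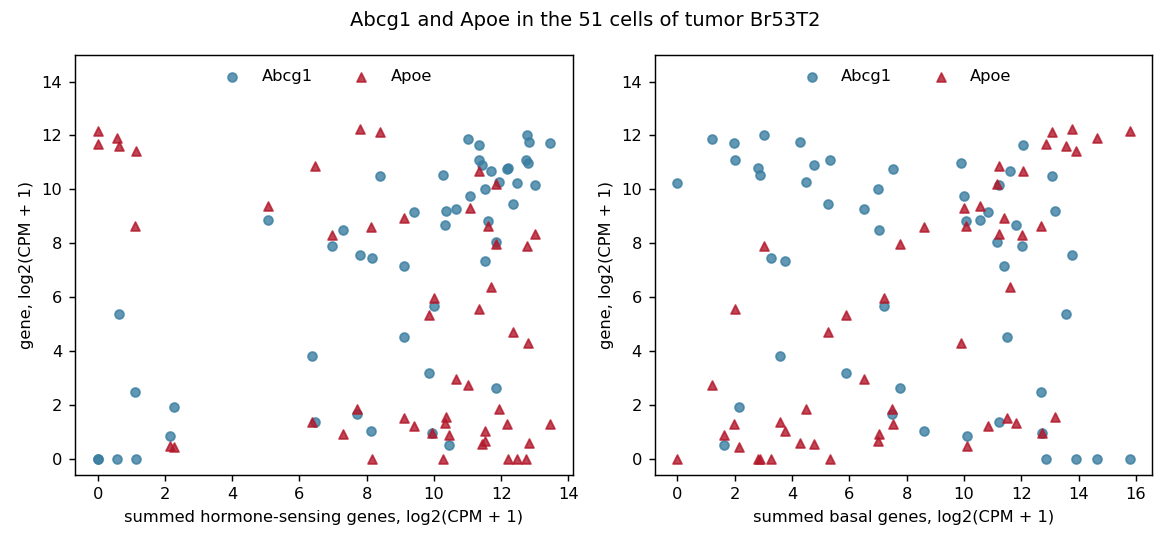
Level of *Abcg1* (circles) and *Apoe* (triangles) in each of the 51 cells of tumor Br53T2, as log2(CPM + 1), against the summed hormone-sensing genes (left) and basal genes (right). *Abcg1* climbs to the right with hormone-sensing genes (rho 0.76) and *Apoe* with basal genes (rho 0.70).

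The other LXR genes were not called by edgeR. *Abca1*, the second exporter, was at 54.3, 44.8 and 109 CPM in vBrL, vBr53L and v53L, and at 13.7, 97.3, 20.0 and 9.97 CPM in pBrL-1, pBrL-2, pBr53L and p53L, so that pBrL-2 alone among pregnant mice lay in the virgin range (-1.36 ± 0.92, edgeR adjusted p = 0.709). *Nr1h2*, which encodes LXR beta, ranged from 13.3 to 65.6 CPM. *Nr1h3*, which encodes LXR alpha, had no read in vBrL and vBr53L and 2.02 to 4.74 CPM in the 4 tumors. It was at 1.51 CPM in v53L and at 8.18, 0.195, 2.03 and 0.0218 CPM in pBrL-1, pBrL-2, pBr53L and p53L, so pBrL-1 lay above all tumors. After thinning, only 2 to 4 cells per tumor had a read, and in vBrL and vBr53L the upper limits were 10% and 9.03% of cells, against shares of 3.92% to 10% in the tumors. The tumor mean of 2.76 ± 1.32 CPM (SD, 4 tumors) was 62.6-fold above a floor of 3 reads per mouse in these 2 virgin mice. It sets no lower limit on the difference, because the reads came from few cells and the shares of cells overlapped these limits. The edgeR test gave an unadjusted p of 0.00696 and an adjusted p of 0.306 (0.309 without BrT1, which held the highest tumor value). *Lpcat3*, a phospholipid remodelling enzyme, spanned 33.9 to 98.7 CPM and *Mylip*, a ligase that degrades lipoprotein receptors, 0.115 to 25.1 CPM. Without *Abcg1* and *Apoe*, the other 5 genes of the group summed to 113 to 230.1 CPM in virgin mice, 63.4 to 172 in pregnant mice and 118 to 229 in tumors.

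**Figure D5:**
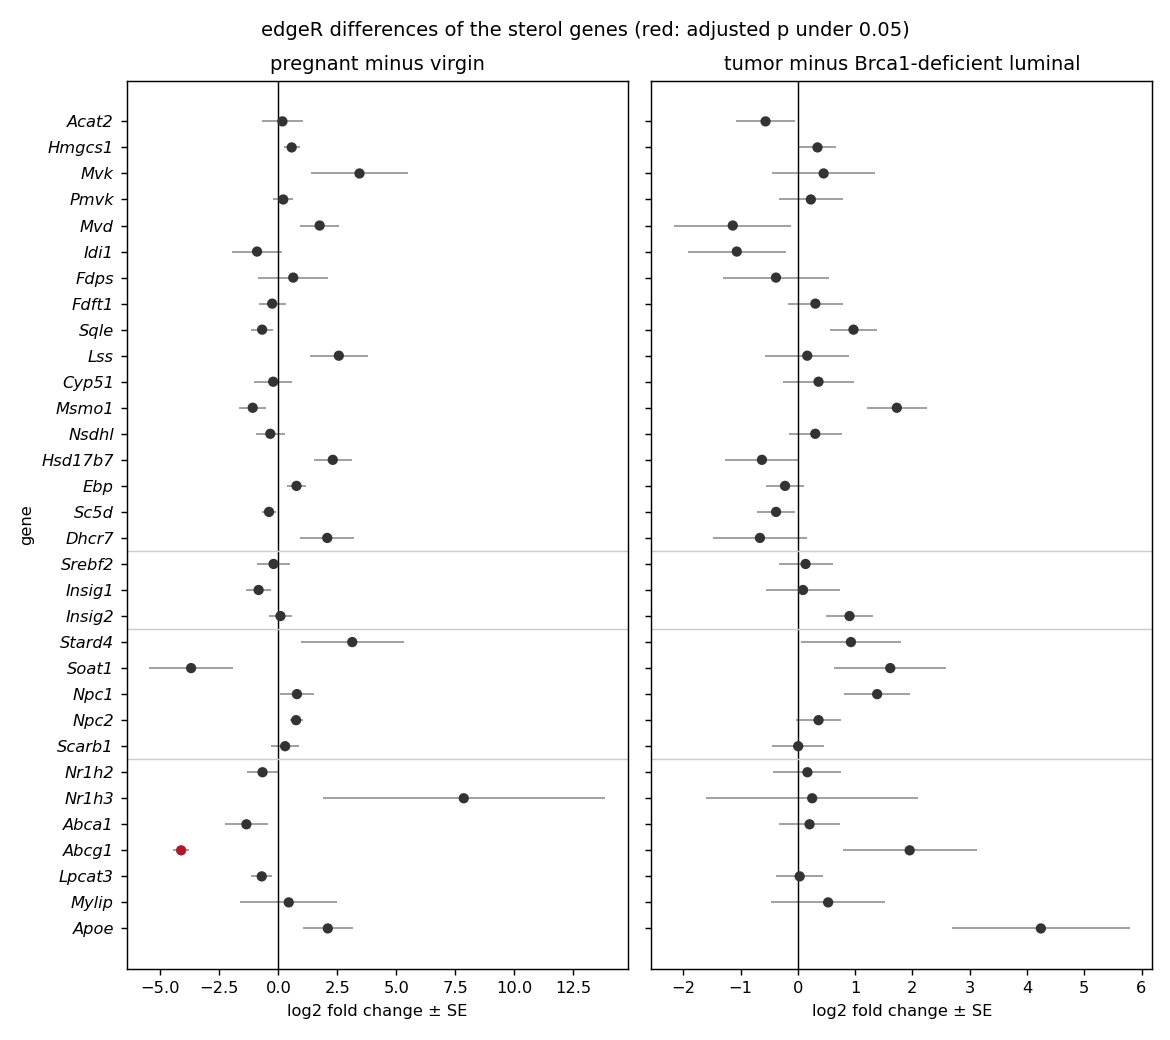
Log2 fold change with its standard error for the 32 genes, pregnant minus virgin (left, 7 luminal mice, genotype in the model) and tumor minus *Brca1*-deficient luminal (right, 4 and 5 mice); red marks an adjusted p under 0.05. *Abcg1* in pregnancy (-4.12) is the single red point.

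Counted over all 32 genes, pregnancy gave 18 higher and 14 lower, with a median log2 difference of 0.19 against 0.12 over all genes tested. The stages did not overlap in 5 genes, 3 higher (*Mvd*, *Ebp*, *Npc2*) and 2 lower (*Msmo1*, *Abcg1*), against 11.9% of all genes, and 3 had an unadjusted p under 0.05 against 9.74%. DESeq2 called 3 (*Abcg1*, *Hsd17b7*, *Nr1h3*), where it called 7.96% of all genes, and limma called *Abcg1*, where it called 0.317%. For tumors against *Brca1*-deficient luminal mice edgeR called 0 of 32, against 0.609% of 12978 genes, with 4 at an unadjusted p under 0.05 (*Msmo1*, *Sqle*, *Npc1*, *Apoe*), against 13.8%. All 4 were higher, as were 7.98% of all genes. DESeq2 called 2 (*Msmo1*, *Apoe*), where it called 6.44% of all genes, and limma 1 (*Msmo1*), where it called 2.71%. In this comparison 24 genes were higher and 8 lower, the median was 0.24 against 0.06 over all genes, and 2 did not overlap (*Msmo1*, *Npc1*) against 7.52%, both higher (5.01%).

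With the stages apart, edgeR called 0 of 32 against virgin mice (0.0266% of 15051 genes) and 0 against pregnant mice (0.392%). The unadjusted p was under 0.05 for 2 and 4 genes, against 12.1% and 13.8%. DESeq2 called 2 (*Nr1h3*, *Apoe*) and 3 (*Soat1*, *Msmo1*, *Abcg1*), against 9.89% and 8.61% of all genes, and limma 0 and 1, against 0.0199% and 1.28%. Against virgin mice 4 genes lay higher and 2 lower without overlap (18.8% of all genes did), and against pregnant mice 4 lay higher and 0 lower (14.5% in both directions, 8.51% higher). The medians were 0.29 and 0.23, against 0.29 and 0.16 over all genes. The median against virgin mice is the same with *Nr1h3* set at the floor of 3 reads. These comparisons share the tumors.

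Genotype was compared next. Between *Brca1*-deficient and *Trp53 fl/+* luminal mice edgeR called 0 of 32 (0% of 13709 genes), 3 had an unadjusted p under 0.05 (*Insig1*, *Sc5d*, *Lss*; background 5.97%), and DESeq2 called 1 (4.1%) and limma 0 (0%). Of these, *Insig1* and *Sc5d* lay lower in all 5 *Brca1*-deficient mice (11.3% of genes did not overlap, 3.12% lower). Both *Trp53 fl/+* mice share chip SC9, so genotype and chip cannot be told apart for any of these genes. Between Br53 and Br tumors edgeR called 0 (0% of 13477), with 1 unadjusted (*Stard4*, 3.98%), DESeq2 called 1 (2.34%) and limma 0 (0%), and 15 genes did not overlap against 31.9% of all genes. Whether the tumor difference depended on *Trp53* was asked by an interaction term, which called 0 of 32 (0.00664% of 15051), with 0 at an unadjusted p under 0.05 (5%) and 0 by DESeq2 (2.92%) and limma (0.00664%).

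Other lipid genes were followed as fixed lists. Of 24 further sterol genes, edgeR called 2 between tumors and *Brca1*-deficient luminal mice (0.609% of all genes), with 7 at an unadjusted p under 0.05 (13.8%), and DESeq2 called 4 (6.44%) and limma 3 (2.71%). *Lrp1*, a receptor for *Apoe*-bearing particles, stood at 17.6 to 101 CPM in the tumors and at most 2.61 CPM in the luminal mice (5.33 ± 0.93, adjusted p = 0.0379). *Lipa*, the lysosomal lipase that frees cholesterol from its esters, stood at 207, 123, 52.9 and 27.2 CPM in BrT1, BrT2, Br53T1 and Br53T2, below all luminal mice (-3.57 ± 0.67, adjusted p = 0.0471). *Lipa* was at 529 to 752 CPM in virgin and 1407 to 1728 CPM in pregnant mice, a difference of 1.45 ± 0.23 that did not pass the test (adjusted p = 0.139). It was also called between tumors and pregnant mice (-4.02 ± 0.63, adjusted p = 0.0351), the single one of the 24 there (0.392% of all genes), with 6 at an unadjusted p under 0.05 (13.8%), 4 called by DESeq2 (8.61%) and 2 by limma (1.28%). In pregnancy edgeR called 0 of the 24 (0.0159% of all genes), with 4 at an unadjusted p under 0.05 (9.74%), where DESeq2 called 3 (7.96%) and limma 1 (0.317%).

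The 10 listed genes of fatty acid synthesis summed to 1738 to 3101 CPM in virgin, 3249 to 5287 in pregnant and 904 to 1366 in tumor mice, without overlap between the 3 stages, the closest values being v53L and pBrL-2 at 3101 and 3249 CPM. In pregnancy edgeR called 0 of the 10 (background 0.0159%), with 5 at an unadjusted p under 0.05 (9.74%), and DESeq2 called 3 (7.96%) and limma 0 (0.317%). Between tumors and *Brca1*-deficient luminal mice the counts were 0 (0.609%), 5 (13.8%), 4 (6.44%) and 2 (2.71%). The 2 smallest p-values in pregnancy were for *Acly*, which makes cytosolic acetyl-CoA (1.66 ± 0.31, adjusted p = 0.216), and *Fasn*, the fatty acid synthase (1.56 ± 0.46, adjusted p = 0.409). In tumors they were for *Scd2*, a desaturase (2.71 ± 0.62, adjusted p = 0.0709), and *Fasn* (-1.88 ± 0.46, adjusted p = 0.0972).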

How the data were processed

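Single cells were sequenced on Fluidigm C1 chips. The authors trimmed the reads (Trim Galore 0.4.1), aligned them to mm10 (STAR 2.5.3a) and counted them per gene (Subread 1.5.3). The deposited values are raw counts without molecular identifiers, and the annotation and use of strand are not given in the sources used here. The 33 genes, the lists and the naming rule were chosen with earlier results of these data known. All 33 genes could be named, those called or without overlap in full, the others by range with examples. Other lipid genes were named where called or, failing that, as the 2 smallest p-values.

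Counts were summed per mouse, 40338926 to 115827852 reads each. They were tested with edgeR 4.0.16 in R 4.3.3 (filterByExpr, TMM, quasi-likelihood test, Benjamini-Hochberg over all genes, threshold 0.05). Stage and genotype entered the fit of the 7 luminal mice, and the tumors were set against *Brca1*-deficient mice without covariates. The fit was also run on simulated counts with a common dispersion for all genes. Such counts differ from sums in which few cells hold most reads, so no conclusion is drawn from them. Doublets were inspected by the authors under a microscope and not called again. Shares used cells thinned to 100000 reads with exact 95% intervals. The 8 hormone-sensing genes, the basal and other marker lists were written for this work. Positions and exon lengths came from GENCODE vM21, promoters from RefSeq. DESeq2 1.42.0, limma 3.58.1 on log2(mean CPM + 1) and other alternatives are given in the closing section.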

Additional observations from a re-analysis of the deposited data

Results flagged for a closer look

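Levels of each of the 32 genes, as log2(CPM + 1), were examined for a mouse that stood apart from its group, in the 4 pregnant mice, the 4 tumors and the 7 luminal mice. Of 96 such groups, 9 held a mouse whose gap to its neighbour took an unusually large share of the group's range. Chance alone would give about 4.8, since 5% of groups are picked out this way.

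In *Msmo1*, pBrL-2 stood at 9.77 CPM against 46.5 to 48.7 CPM in the other pregnant mice, a gap of 0.97 of their range. The same mouse was apart among all luminal mice, at 0.59 of the range. The tumor on the same chip, Br53T2, had 137 CPM.

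In *Insig1*, p53L stood at 50.6 CPM against 12.8 to 15.2 CPM in the other pregnant mice (0.878 of the range). In *Nr1h3*, BrT1 stood at 4.74 CPM against 2.02 to 2.20 CPM in the other tumors (0.911).

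Among luminal mice, v53L was lowest in *Acat2* (3.05 CPM against at least 18.3, 0.652 of the range), *Fdps* (0.694 against at least 2.86 CPM, 0.678) and *Ebp* (27.9 against at least 78.5 CPM, 0.702). It had the fewest reads of the 11 mice, at 40338926, and its summed proliferation markers were lowest at 30.2 CPM. In *Hmgcs1*, vBr53L stood at 86 CPM against at least 179 CPM (0.697), and in *Nr1h2*, vBrL stood at 65.6 CPM against at most 20.5 CPM (0.736).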

How the results depend on the processing

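The count of called sterol genes was 1 in pregnancy. It became 3 with DESeq2 (*Abcg1*, *Hsd17b7*, *Nr1h3*, where it called 7.96% of all genes), 0 in the *Brca1*-deficient mice alone and 0 to 1 with single mice left out. For tumors against luminal mice the count of 0 became 2 with DESeq2 and 1 with the mean CPM over cells and limma. Against virgin mice it became 2 with DESeq2. Against pregnant mice it became 3 with DESeq2, 1 with the mean CPM over cells and limma (*Msmo1*), 1 with all luminal mice (*Abcg1*) and 0 to 1 with single mice left out (*Abcg1* without BrT1). For luminal *Brca1* status it became 1 with DESeq2 (*Lss*). For tumor genotype it became 1 with DESeq2 and 0 to 1 with single mice left out (*Abcg1* without BrT2, 5.95 higher in Br53 tumors, where BrT1 alone stands for the Br tumors and is assumed to vary like the others). For the interaction it became 1 without the low-count filter (*Apoe*). The causes were not tested.

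Over all genes, edgeR called 2 genes in pregnancy, 79 between tumors and luminal mice, 4 against virgin mice, 59 against pregnant mice, 0 for *Brca1* status, 0 for tumor genotype and 1 in the interaction. DESeq2 called 965, 808, 1338, 1145, 514, 315 and 412. With single mice left out edgeR called 0 to 4, 11 to 94, 2 to 13, 5 to 60, 0 to 127, 0 to 228 and 0 to 156.

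Differences that turned were *Apoe* in pregnancy within chip SC9 (-0.23), *Abcg1* against virgin mice with the mean CPM over cells (-0.11), *Soat1* against virgin mice with all luminal mice (-0.057) or without vBr53L (-0.018, up to 1.88 with other mice left out), and *Abca1* by tumor genotype without BrT1 (-0.00093, up to 0.73). None of these had been called. Scaling by library size alone, added after the data were seen, moved the median of all genes by 0.15 in the tumor comparison. The differences between stages in the sums by role moved by less than the spread between mice under each of their 2 alternatives, although with the caseins left out the synthesis sum of pregnant minus virgin mice went from -0.076 to 0.071 (log2). Of 44 shares of cells, 2 left their interval at 50000 reads, 6 when 3 reads were required and 13 without thinning. The labels give no replicate numbers that pair mice across groups, so only chip was used for pairing. Chips SC7 and SC9 each held a virgin and a pregnant mouse of 1 genotype, and the fit with chip as a block and the values within chips stand beside the results above. The reads of *Nr1h3* came from few cells, 2 to 4 per tumor after thinning, so its level at this depth is uncertain.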
